A study of Mus musculus with 8 samples.

Results

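The genes described here are 10 genes of the BCL2 family, taken by symbol from the 13245 genes of the deposited table. All 10 members were listed, and all 10 passed the filter, an average of 1 CPM or more (read counts scaled to library size), that left 11503 genes for testing. They are 3 guardians (Bcl2, Bcl2l1, Mcl1), 2 effectors (Bax, Bak1) and 5 BH3-only genes (Bcl2l11, Bbc3, Pmaip1, Bid, Bad). CD8 T cells with Ly6C and CXCR3 on their surface were sorted from the lymph nodes of 2 groups, C57BL/6 (B6) and CD103Tg, and gave 4 libraries each. CD103Tg mice overexpress CD103, an integrin chain whose gene is Itgae. The promoter of the transgene, the age and sex of the mice and whether a library pooled animals are not given in the sources used here. Neither is it given whether the 4 libraries of a group are 4 animals, so the spread behind each p-value is that of libraries and may be technical.

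The BCL2 family decides whether the outer mitochondrial membrane is opened during apoptosis. The guardian proteins BCL2, BCL-XL (from Bcl2l1) and MCL1 hold the effectors BAX and BAK and the BH3-only proteins in check. BH3-only proteins such as BIM (from Bcl2l11), PUMA (from Bbc3) and NOXA (from Pmaip1) occupy the guardians or activate the effectors, which then form pores and release cytochrome c. In CD8 T cells, BCL2 is known as a survival factor maintained by interleukin-7 and interleukin-15, and BIM as the BH3-only protein that removes many effector cells at the end of a response.

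Bcl2 and Bcl2l11, a guardian and the BH3-only gene that it restrains, were both higher in CD103Tg, by 1.68-fold and 1.52-fold on the log2(CPM + 1) scale. Bcl2l1, Bax, Bad and Pmaip1 were higher as well, by 1.37-fold to 1.57-fold. Bbc3 was lower, at 0.602 of the B6 level. Mcl1, Bak1 and Bid did not pass the test. In all, 6 of the 10 genes were called higher and 1 lower at a limma adjusted p under 0.05, where 17.4% of the 11503 tested genes were called higher and 13.8% lower (31.2% in either direction). The median log2 fold change was 0.45 over the 10 genes and -0.0052 over all tested genes. The 10 genes were chosen with earlier results of these data known, so these shares are a description with no test of the set. The 4 CD103Tg libraries lay wholly above the 4 B6 libraries for Bcl2, Bax, Bcl2l11 and Bad, and wholly below for Bbc3, where 17.4% and 13.6% of tested genes did so (31% in either direction). In these bulk samples, more cells with a transcript and more transcript per cell cannot be told apart.

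Bbc3 and Bcl2l11, the BH3-only genes with the largest differences, moved in opposite directions, and both have a window before a start site with the FOXO core GTAAACA, or TGTTTAC on the other strand. FOXO factors are known activators of both genes. These genes are the clearest contrast within the BH3-only group. The 2 windows printed were picked from their listed windows because they hold the core. They are the 250 bases before a RefSeq start site on the plus strand of GRCm38.p6, 5′ to 3′, with the core in capitals. The Bcl2l11 window is chr2:128125788-128126037, before 1 of the gene's 2 listed start sites, and its core begins 227 bases before that start. The Bbc3 window is chr7:16310011-16310260, before 1 of the gene's 3 listed start sites, and its core begins 167 bases before that start.
Bcl2l11: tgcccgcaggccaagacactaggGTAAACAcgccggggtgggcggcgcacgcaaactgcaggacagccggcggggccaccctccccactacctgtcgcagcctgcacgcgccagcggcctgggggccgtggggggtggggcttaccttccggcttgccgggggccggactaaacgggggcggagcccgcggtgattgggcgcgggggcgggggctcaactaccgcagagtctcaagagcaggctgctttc
Bbc3: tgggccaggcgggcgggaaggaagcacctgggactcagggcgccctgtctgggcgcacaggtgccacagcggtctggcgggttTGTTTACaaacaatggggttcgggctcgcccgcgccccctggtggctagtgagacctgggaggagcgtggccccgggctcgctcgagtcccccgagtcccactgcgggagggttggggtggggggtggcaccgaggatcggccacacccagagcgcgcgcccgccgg

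Over windows of 300 bases (250 before and 50 after the start), the core on either strand was found in 2 of the 15 windows of 9 members and in 3.65% of all 32851 windows. The STAT core TTCNNNGAA, the same on both strands, was found in 0 of the 15 member windows and in 8.3% of all windows. Pmaip1 was not searched. The motifs were chosen after the windows had been seen, and a match describes letters only. Foxo1, which encodes the main FOXO factor of naive and memory T cells, went from 338 ± 11.5 CPM in B6 to 252 ± 9.37 CPM in CD103Tg (means with SD over 4 libraries). It fell by 0.42 ± 0.05 (SE) on the log2 scale (adjusted p = 7.06e-05). Foxo3 fell by 0.37 ± 0.10 (adjusted p = 0.0144).

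**Figure D1:**
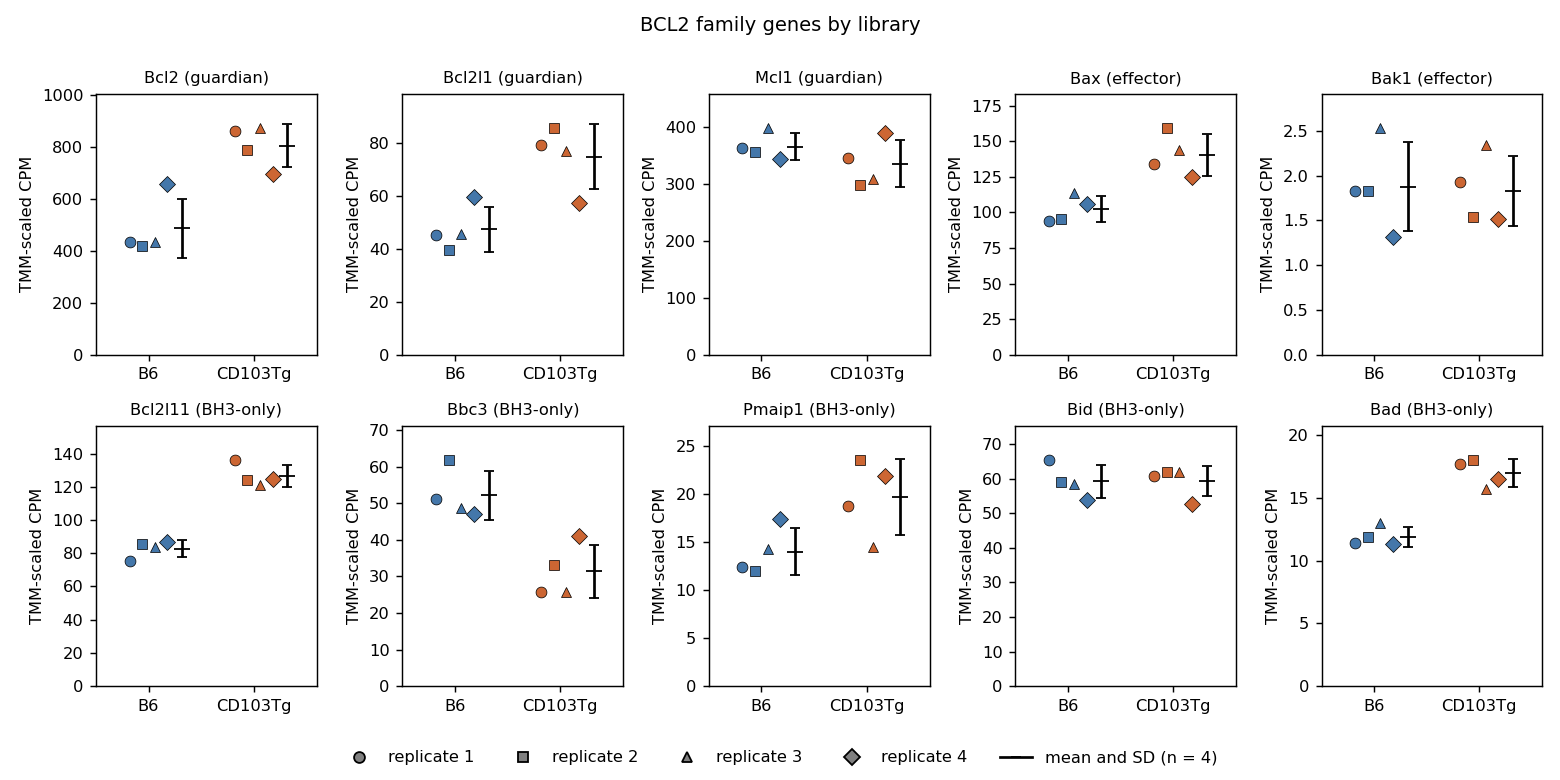
TMM-scaled CPM of the 10 BCL2 family genes in each library, with 1 panel per gene, 1 symbol per replicate number and the mean with SD (n = 4) beside each group. The y axes start at 0 and differ between panels. Bcl2, Bax, Bcl2l11 and Bad lie higher in every CD103Tg library than in any B6 library, Bbc3 lies lower, and replicate 4 of B6 (658 CPM) stands above the other B6 libraries for Bcl2.

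Among the guardians, Bcl2 (GRCm38 chromosome 1, 106538178 to 106714274, minus strand) had the highest CPM of the 10 genes. Its B6 libraries stood at 436, 420.5, 435 and 658 CPM in the order of replicates 1 to 4, and its CD103Tg libraries at 864, 790.4, 874 and 697 CPM. The groups did not overlap, with replicate 4 nearest to the other group on both sides. The means were 487 ± 114 and 806 ± 81.9 CPM (SD), and the log2 fold change was 0.75 ± 0.13 (SE; adjusted p = 0.00146). B6 replicate 4 also had more Itgae, at 174 CPM against 37.5 to 51.4 in the other B6 libraries and 3469 to 5509 in CD103Tg. Without it, the log2 fold change of Bcl2 was 0.90 ± 0.08. The annotation has an antisense gene, D630008O14Rik, that shares 558 exonic bases with Bcl2 (6.09% of the Bcl2 exons). D630008O14Rik was itself called higher, by 0.64 ± 0.16 on the log2 scale, from 2.30 to 4.03 CPM. Strand is not marked in these libraries, and reads in the shared bases cannot be told apart.

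Bcl2l1 (chromosome 2, 152780668 to 152831728, minus strand) encodes BCL-XL. It stood at 45.0, 39.5, 45.3 and 59.3 CPM in B6 and at 79.1, 85.5, 76.8 and 57.2 CPM in CD103Tg. CD103Tg replicate 4 lay below B6 replicate 4, so the groups overlapped by that pair alone. The log2 fold change was 0.65 ± 0.14 (adjusted p = 0.00419). It was 0.88 ± 0.07 without both libraries numbered 4. The table is by gene, so the long BCL-XL and short BCL-XS transcripts of Bcl2l1 are not separated, and neither are the isoforms of Mcl1 and Bcl2l11.

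Mcl1 (chromosome 3, 95658788 to 95663176, plus strand) encodes a short-lived guardian that T cells need at every stage. It stood at 364, 356, 399 and 344 CPM in the B6 libraries and 346, 298, 309 and 390.1 CPM in CD103Tg. The groups overlapped, with CD103Tg replicate 4 second among all 8 libraries. The log2 fold change was -0.13 ± 0.08, with a 95% confidence interval of -0.31 to 0.05 (adjusted p = 0.27). Without CD103Tg replicate 4 it passed as lower (-0.20 ± 0.07, adjusted p = 0.0481), and also without both libraries numbered 4 (-0.23 ± 0.07, adjusted p = 0.0297). The interval of the full set excludes a rise of the size seen for Bcl2 and Bcl2l1.

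The effectors differed from each other in level. Bax (chromosome 7, 45461697 to 45466898, minus strand), which moves from the cytosol to mitochondria when activated, stood at 94.2, 95.5, 113 and 106 CPM in B6. In CD103Tg it stood at 134, 159, 144 and 125 CPM, above every B6 library. The means were 102 ± 9.14 and 141 ± 14.9 CPM, with a log2 fold change of 0.45 ± 0.08 (adjusted p = 0.00182). Bak1 (chromosome 17, 27019810 to 27029009, minus strand), whose product resides in the mitochondrial membrane, was near the filter in every library. It ranged from 1.31 to 2.53 CPM in B6 and from 1.51 to 2.34 CPM in CD103Tg, on 76.0 to 132 estimated reads per library. Its log2 fold change was -0.02 ± 0.16, with an interval of -0.37 to 0.33, and changed sign in 3 of 19 alternative fits. Among genes that share exonic bases with the effectors are Ggnbp1, on the other strand from Bak1 (437 bases, 18.2% of the Bak1 exons), which averaged 0.438 CPM, and Gm45808, on the same strand as Bax (192 bases, 12.2% of the Bax exons), which is not among the listed genes. Shared reads cannot be assigned to one gene of a pair.

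Of the BH3-only genes, Bcl2l11 (chromosome 2, 128126038 to 128162547, plus strand) had the smallest p of the 10 members. It stood at 75.3, 85.3, 83.8 and 86.7 CPM in B6 and 136, 124, 121 and 125 CPM in CD103Tg. The groups were well apart and each was tight, with means of 82.8 ± 5.13 and 127 ± 6.77 CPM. The log2 fold change was 0.61 ± 0.06 (adjusted p = 2.75e-05).

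Bbc3 (chromosome 7, 16308393 to 16318205, plus strand) encodes PUMA, a p53 target that binds all the guardians. It stood at 51.1, 61.9, 48.5 and 46.9 CPM in B6 and at 25.7, 33.0, 25.8 and 41.0 CPM in CD103Tg. Every CD103Tg library was below every B6 library, and CD103Tg replicate 4 was nearest to B6. The means were 52.1 ± 6.75 and 31.4 ± 7.27 CPM. Bbc3 fell by 0.73 ± 0.14 on the log2 scale (adjusted p = 0.00248), and by 0.87 ± 0.11 without CD103Tg replicate 4.

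Pmaip1 encodes NOXA, which binds mainly MCL1. It stood at 12.4, 12.03, 14.2 and 17.4 CPM in B6 and 18.8, 23.6, 14.5 and 21.9 CPM in CD103Tg. The groups overlapped, since CD103Tg replicate 3 lay below B6 replicate 4. The log2 fold change was 0.45 ± 0.15 (adjusted p = 0.0409). The call was lost in 10 of 20 alternative fits, among them those that left out B6 replicate 1, 2 or 3 or CD103Tg replicate 1, 2 or 4, with adjusted p up to 0.12.

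Bad (chromosome 19, 6941861 to 6951899, plus strand), whose product is held inactive by phosphorylation downstream of growth factor signals, stood at 11.4, 11.9, 13.0 and 11.3 CPM in B6. In CD103Tg it stood at 17.7, 18.0, 15.7 and 16.5 CPM, above all B6 libraries. The log2 fold change was 0.48 ± 0.08 (adjusted p = 0.0012). The opposite-strand gene Gpr137 shares 524 exonic bases with Bad (20.5% of the Bad exons). Gpr137 was called higher by nearly the same amount, 0.49 ± 0.09, from 5.11 to 7.54 CPM. Which of the pair the shared reads came from cannot be told apart. Bid (chromosome 6, 120891930 to 120916853, minus strand), which caspase-8 cleaves to link death receptors to mitochondria, ranged from 53.8 to 65.6 CPM in B6 and from 52.8 to 61.9 CPM in CD103Tg, with overlap. Its log2 fold change was 0.0024 ± 0.075, with an interval of -0.16 to 0.17 (adjusted p = 0.985). The opposite-strand gene Bcl2l13 shares 628 exonic bases with Bid (17.7% of the Bid exons). Bcl2l13 was at 80.5 ± 5.32 and 77.7 ± 3.17 CPM and was not called, and the shared reads cannot be told apart either.

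**Figure D2:**
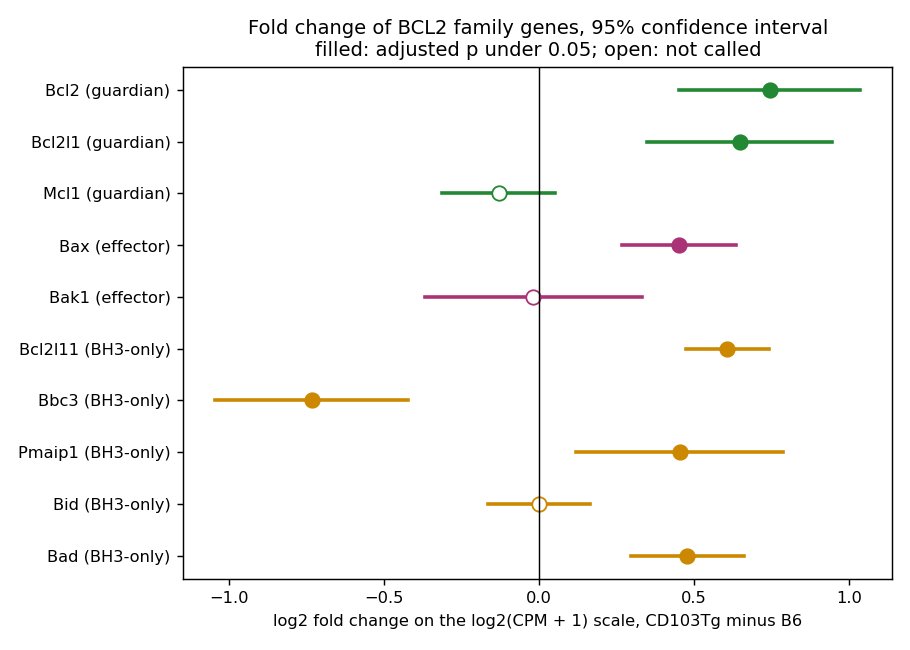
Log2 fold change (CD103Tg minus B6, on the log2(CPM + 1) scale) of the 10 genes with 95% confidence intervals, ordered by role and coloured by it. Filled points have an adjusted p under 0.05. The 6 genes called higher lie between 0.45 (Bax) and 0.75 (Bcl2), Bbc3 lies at -0.73, and the intervals of Mcl1, Bak1 and Bid include 0.

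Levels were compared between genes as CPM per kilobase of merged exons. In B6, Mcl1 was first with 107 ± 6.91, then Bax with 64.9 ± 5.80 and Bcl2 with 53.2 ± 12.4 CPM per kilobase. The ranges of Bax (59.8 to 72.0) and Bcl2 (45.9 to 71.9) overlapped. In CD103Tg, Mcl1 (98.2 ± 12.2), Bax (89.2 ± 9.44) and Bcl2 (88.1 ± 8.94) overlapped in range. Bbc3 came next in B6 at 24.5 ± 3.18 CPM per kilobase, and in CD103Tg it was at 14.8 ± 3.42, below Bid, Bcl2l1 and Bcl2l11, although its range overlapped theirs. Pmaip1 and Bad followed in both groups with overlapping ranges, and Bak1 was last at 0.779 ± 0.208 and 0.760 ± 0.161 CPM per kilobase. With the median length of the annotated coding transcripts in place of merged exons, the first 3 in CD103Tg were Bax, Bcl2 and Mcl1, and Bbc3 stood above Bcl2 in B6 (107 ± 13.9 against 97.2 ± 22.7 CPM per kilobase, with overlapping ranges). In CD103Tg, Bbc3 was next after them at 64.7 ± 15.0 CPM per kilobase, with every library below all libraries of those 3. By that length Bad lay above Pmaip1 without overlap. Bad was at 13.1 to 15.0 CPM per kilobase in B6 and 18.1 to 20.9 in CD103Tg, and Pmaip1 at 4.75 to 6.85 and 5.72 to 9.31. The order therefore depends on the length used, in the upper group and below it.

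Ratios between 2 genes of the same library do not depend on the scaling between libraries. The pairs were chosen after the values were seen, so the ratios are a description with no test, and a ratio of CPM is not a ratio of molecules. Bcl2 to Bcl2l11 was 5.79, 4.93, 5.19 and 7.59 in B6 and 6.33, 6.37, 7.22 and 5.59 in CD103Tg, so the guardian and the BH3-only gene rose with overlapping ratios. Bcl2l1 to Bcl2l11 also overlapped, at 0.463 to 0.685 in B6 and 0.459 to 0.689 in CD103Tg. Mcl1 to Bcl2l11 was 3.96 to 4.84 in B6 and 2.40 to 3.13 in CD103Tg, without overlap.

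The ratio of Bcl2 to the effector gene Bax was 3.84 to 6.21 in B6 and 4.96 to 6.44 in CD103Tg, again overlapping. Bcl2 to Bbc3, the member that fell, was 6.79 to 14.02 in B6 and 17.0 to 33.9 in CD103Tg without overlap, a ratio of means of 2.83. Bcl2l11 to Bbc3, the BH3-only genes that moved apart, was 1.38 to 1.85 in B6 and 3.04 to 5.31 in CD103Tg, also without overlap. Bcl2 and Bcl2l11 each lay wholly higher in CD103Tg and Bbc3 wholly lower. Their ratios to Bbc3 therefore could not overlap, and the separation adds nothing to the values of the single genes. The ratios of Bcl2 to Bcl2l11 and Bax, which rose as well, were not fixed in this way and overlapped. Mcl1 to Pmaip1, a guardian and its preferred BH3-only partner, was 19.8 to 29.6 in B6 and 12.6 to 21.3 in CD103Tg and overlapped. Bcl2 to Mcl1 was 1.09 to 1.92 in B6 and 1.79 to 2.83 in CD103Tg, and only the libraries numbered 4 overlapped.

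**Figure D3:**
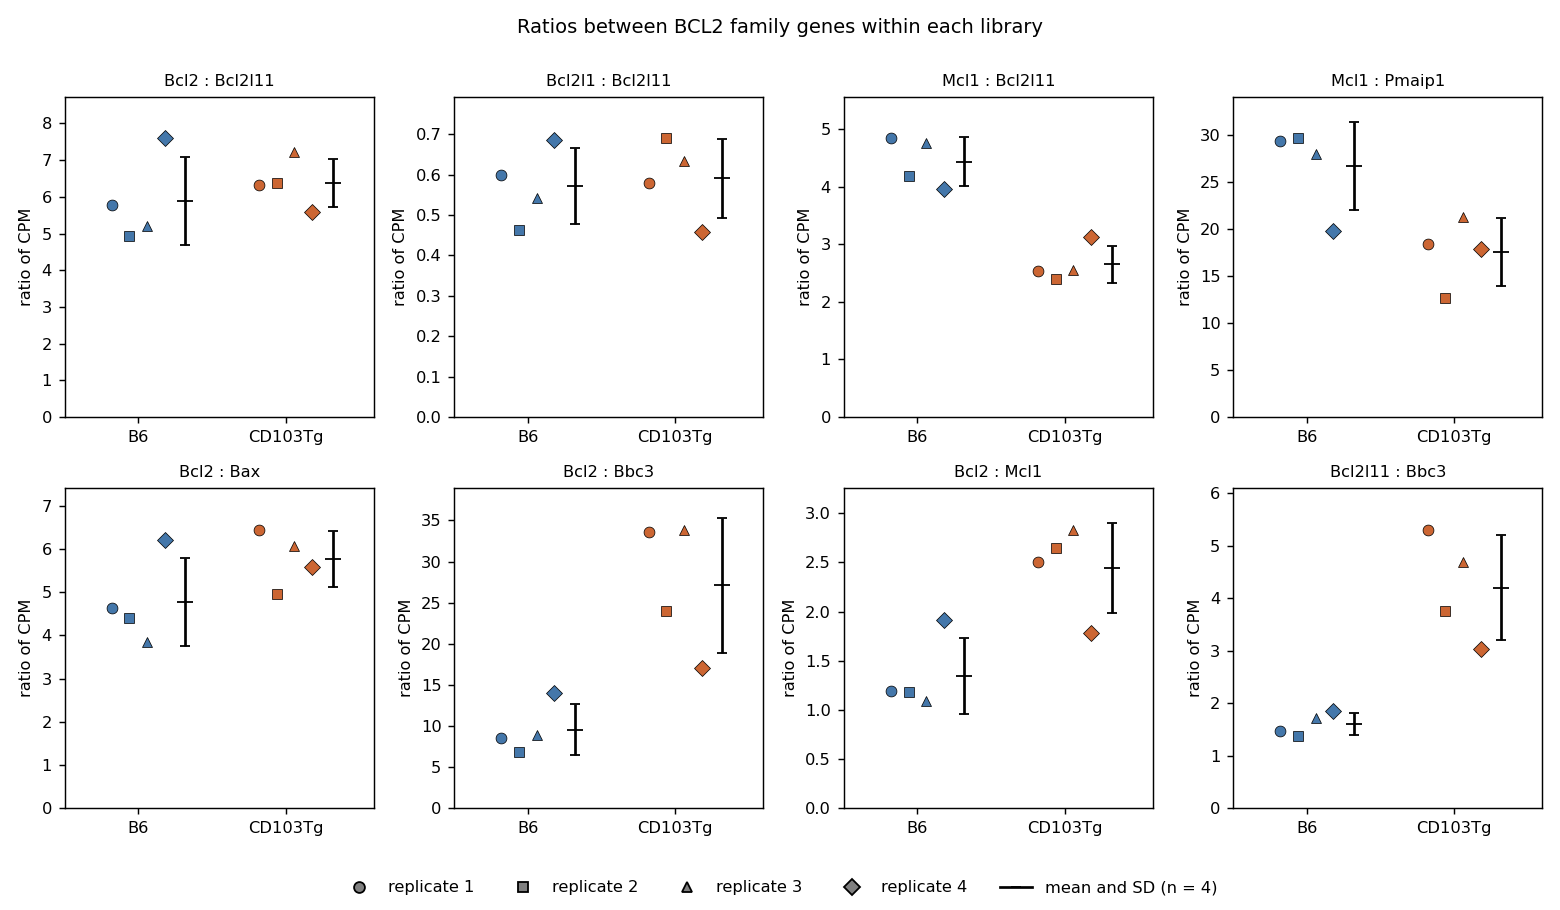
Ratio of CPM between 8 pairs of BCL2 family genes within each library, with 1 symbol per replicate number and the mean with SD (n = 4) beside each group, on axes that start at 0. Mcl1 to Bcl2l11 is lower and Bcl2 to Bbc3 and Bcl2l11 to Bbc3 are higher in all 4 CD103Tg libraries than in any B6 library, and the other 5 ratios overlap between the groups. For the ratios to Bbc3 the separation follows from the single genes, none of which overlapped between the groups.

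The genes most like 3 of the members were taken by Pearson's r of log2(CPM + 1) over the 8 libraries, among 8963 other genes averaging 5 CPM or more, with predicted gene models, clone names, pseudogenes and receptor segments left out. The libraries share the 2 groups, so r mostly reflects the group difference for genes that differ. For Bcl2 they were Smyd3 (0.992), Atg4d (0.989) and Scly (0.988). For Bcl2l11 they were Pelo (0.992), Thap4 (0.989) and Cish (0.989), a cytokine-induced suppressor that went from 8.25 ± 1.46 to 90.7 ± 16.4 CPM. For Mcl1, which was not called, they were Tent5c (0.956), Myo7a (0.954) and Brd2 (0.915), whose log2 fold changes were -0.16, -0.15 and -0.10.

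The rest of the family and its partners were read from 8 lists with 80 genes, of which 70 were tested. Of these, 20 were called higher and 15 lower (50% in either direction), where 17.4% and 13.8% of all tested genes were (31.2% in either direction). The median log2 fold change was 0.03, against -0.0052 over all tested genes. The lists were chosen with earlier results of these data known, so their shares of called genes are a description with no test. Among the other guardians, Bcl2l2, Bcl2l10 and Bcl2a1a were not among the listed genes. Bcl2a1b, which encodes a copy of the A1 protein induced by NF-kappaB and receptor signals, fell by 1.14 ± 0.09 on the log2 scale (adjusted p = 6.33e-06). Its libraries stood at 24.9 to 29.2 CPM in B6 and 10.5 to 13.2 CPM in CD103Tg, so this guardian was lower where Bcl2 was higher. Bcl2a1d was not called (-0.36 ± 0.20, adjusted p = 0.193). The A1 genes are near-identical copies, so the division of reads among them is uncertain. A mixed list held other effectors, BH3-only genes and further relatives of the family, not all of which promote death. Of its 6 tested genes, the relative Bcl2l12 was called higher (0.26 ± 0.09, adjusted p = 0.0479, a call lost in 14 of 20 alternative fits). The mitophagy receptor gene Bnip3l was lower (-0.27 ± 0.06, adjusted p = 0.00403).

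Among apoptosome, mitochondrial release, caspase and nuclease genes, the share called was near that of the whole table. Of 10 apoptosome and mitochondrial release genes, 2 were called higher, 1 lower and 7 were not called (30% called, against 31.2% of all tested genes). The channel gene Vdac3 rose by 0.30 ± 0.05 (adjusted p = 0.000918) and Apaf1, the apoptosome scaffold, by 0.27 ± 0.08 (adjusted p = 0.0215, lost in 5 of 20 alternative fits). Diablo, which encodes an antagonist of the inhibitors of apoptosis, fell by 0.19 ± 0.05 (adjusted p = 0.0101). Cycs, cytochrome c, was at 128 ± 9.20 and 139 ± 7.47 CPM and Casp9 at 22.1 ± 2.12 and 21.7 ± 1.42 CPM, and neither passed.

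Of 9 caspase and nuclease genes, 2 were called higher, 1 lower and 6 were not called (33.3% called). Casp8 was called higher by 0.15 ± 0.05 (adjusted p = 0.0377, lost in 9 of 20 alternative fits), and Cflar, which encodes its inhibitor FLIP, fell by 0.30 ± 0.07 (adjusted p = 0.00818).

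Of 6 inhibitor of apoptosis genes, 2 were called higher and 3 lower (83.3% of a short list, against 31.2% of all tested genes). Birc5, or survivin, which also serves in mitosis, rose by 2.11 ± 0.22 (adjusted p = 3.78e-05), from 5.79 ± 1.87 to 27.9 ± 6.50 CPM. All 8 cell cycle markers were called higher beside it, with a summed level of 104 to 163 CPM in B6 and 440 to 710 CPM in CD103Tg, and their part in the result was not tested. Naip5, an inflammasome sensor with closely similar copies, rose by 1.46 ± 0.19 (adjusted p = 0.000179; 0.77 with a pseudocount of 5). Xiap (-0.41 ± 0.11, adjusted p = 0.02), Birc6 (-0.38 ± 0.09, adjusted p = 0.00889) and Birc2 (-0.24 ± 0.06, adjusted p = 0.00763) were lower, and the call of Xiap was lost when B6 replicate 1 or 2 or CD103Tg replicate 2 or 3 was left out.

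Of 5 tested genes that control the turnover of MCL1 protein, Huwe1, a ubiquitin ligase, fell by 0.40 ± 0.07 (adjusted p = 0.000804) and Fbxw7, the substrate receptor of another ligase, rose by 0.36 ± 0.07 (adjusted p = 0.00213). The other 3 were not called (40% called). MCL1 protein was not measured here.

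Of 13 tested genes of p53 and its targets, 4 were called higher and 3 lower (53.8% called, against 31.2% of all tested genes). Sesn2 rose by 0.95 ± 0.10 (adjusted p = 3.17e-05), Cdkn1a, the p21 cell cycle inhibitor, by 1.88 ± 0.26 (adjusted p = 0.000298) and Phlda3 by 1.81 ± 0.27 (adjusted p = 0.000398). Cdkn1a was low, at 0.0916 to 0.563 CPM in B6 and 2.18 to 6.64 CPM in CD103Tg, so the size of its log2 fold change depends on the pseudocount: it was 3.40 with 0.1, 0.74 with 5 and 3.83 with limma voom on estimated reads. Phlda3 was at 1.11 with a pseudocount of 5. Trp53 itself fell by 0.21 ± 0.05 (adjusted p = 0.00737). Gadd45a (-0.54 ± 0.17, adjusted p = 0.0342) and the death receptor gene Fas (-0.43 ± 0.14, adjusted p = 0.0421) were lower, with calls lost in 6 of 19 and 8 of 20 alternative fits. The log2 fold change of Gadd45a was -0.88 with a pseudocount of 0.1, -0.21 with 5 and -0.95 with limma voom. Bbc3, also a p53 target, was thus lower like Gadd45a and Fas, while Sesn2, Cdkn1a, Phlda3 and the members Bax and Pmaip1 were called higher. The call of Pmaip1 was lost in 10 of 20 alternative fits, and 6 of the 13 genes were not called. Mdm2 was at 101 ± 1.82 and 99.2 ± 2.84 CPM and was not called.

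Of 19 factors and receptors upstream of the family, 8 were called higher and 4 lower (63.2% called, against 31.2% of all tested genes). Il2rb, the chain shared by the interleukin-2 and interleukin-15 receptors, went from 1389 ± 88.0 to 2262 ± 215 CPM (adjusted p = 5.89e-05). The stress factor gene Ddit3 (CHOP), a known activator of Bcl2l11, rose by 0.67 ± 0.08 (adjusted p = 7.19e-05) and the kinase gene Akt1 by 0.42 ± 0.06 (adjusted p = 0.000331). Beside Foxo1, Bach2 fell by 0.47 ± 0.09 (adjusted p = 0.00285) and Stat5b by 0.28 ± 0.06 (adjusted p = 0.00397). Il7r, the interleukin-7 receptor gene, was at 634 ± 58.3 and 533 ± 75.3 CPM and did not pass (adjusted p = 0.0743).

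**Figure D4:**
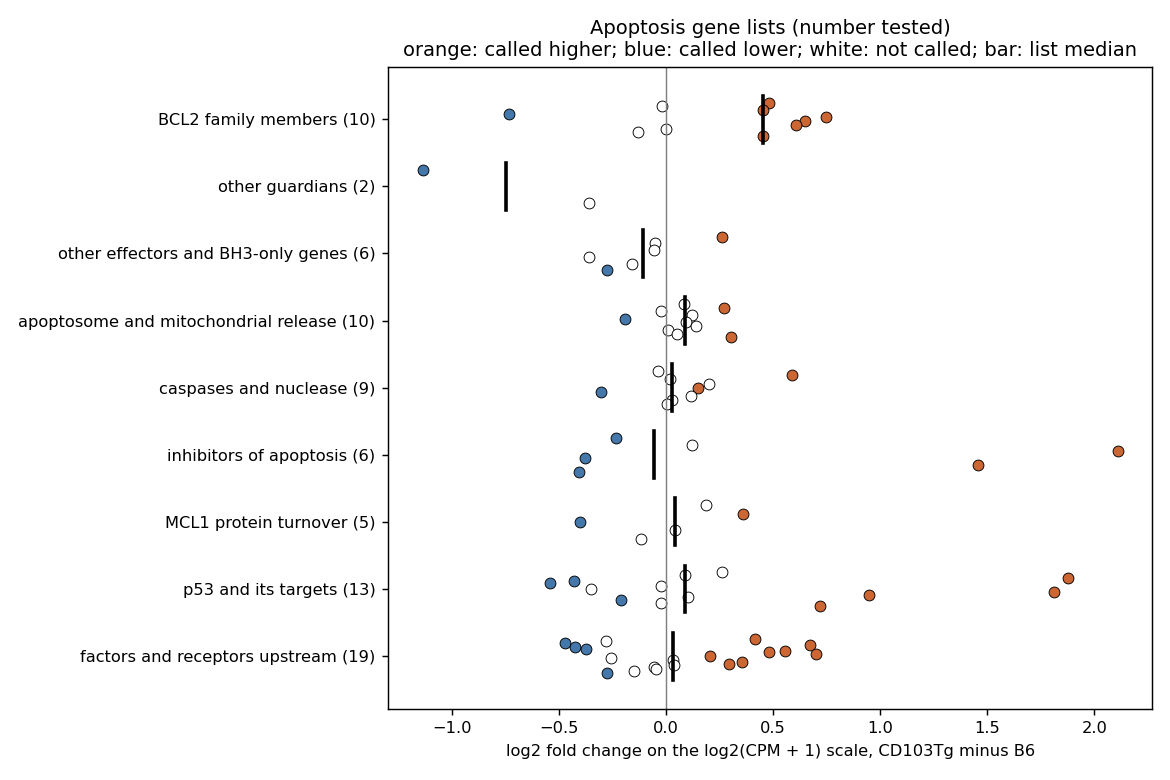
Log2 fold change (CD103Tg minus B6, on the log2(CPM + 1) scale) of every tested gene of the BCL2 family members and the 8 apoptosis lists, with the number tested in brackets, called genes in orange (higher) and blue (lower) and a bar at each list's median. The median lies at 0.45 for the 10 members and between -0.11 and 0.09 for the lists other than the 2 tested guardians, with Birc5 (2.11) farthest to the right.

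The libraries held 50187279 to 56371476 estimated reads over the listed genes, and 1 read was worth 0.0171 to 0.0203 CPM. The members other than Bak1 had 608 to 46948 estimated reads per library. Of the markers of the sorted cells, none of Cxcr3, Ly6c2 and Cd44 was called, and of 6 T cell genes Cd8a and Trac were called lower. Cd4 and Foxp3 were not among the listed genes. B cell markers summed to 794 to 886 CPM in B6 and 381 to 546 CPM in CD103Tg. Most of that was Ighm, at 763 to 852 and 304 to 493 CPM, which was called lower. Cd79a and Igkc were called higher, and Igkc reached 85.2 CPM in CD103Tg replicate 2. Cd79b, at 27.9 to 35.6 CPM over all libraries, was not called, and Ms4a1 was at most 1.76 CPM in any library. Myeloid markers summed to 62.5 to 128 CPM in B6 and 85.6 to 176 CPM in CD103Tg (2 of 6 called higher). Dendritic cell markers summed to 6.14 to 10.3 and 24.3 to 33.5 CPM (4 of 5 called higher, with Flt3 below the filter and untested). Natural killer cell markers summed to 4.76 to 7.53 and 10.1 to 15.3 CPM (2 of 3 called higher, with Ncr1 below the filter and untested). The summed erythroid markers were 32.2 CPM in B6 replicate 4 and 107 CPM in CD103Tg replicate 4, against 0.363 to 6.01 CPM in the other 6 libraries. Of 18 mitochondrially encoded genes, 15 were called lower and mt-Rnr1 was not called, while mt-Tq and mt-Te fell below the filter and were untested. For scale, the same test gave 17.4% of the 11503 genes passing the filter as higher and 13.8% as lower. The part of these markers in the values of the BCL2 family genes was not tested.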

How the data were processed

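RNA was sequenced from 8 libraries (4 B6, 4 CD103Tg) made, per the labels' protocols, with SMART-Seq v4 and Nextera XT, which do not mark the strand or count molecules. Named in the submitters' processing notes are RSEM, STAR 2.7.0f, cutadapt 1.18 and bcl2fastq 2.17, with GRCm38 and mm10 as builds. The authors deposited 1 table of a normalized gene-level signal, TMM-scaled CPM of a filtered gene set, per the labels. How the authors filtered genes is not stated in the sources used here. All 13245 gene IDs matched GENCODE M21, whose GRCm38 coordinates and exons are used; promoter windows are from RefSeq.

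For the 11503 genes averaging 1 CPM or more, log2(CPM + 1) was fitted on genotype alone in R 4.3.3 with limma 3.58.1 (two-sided moderated test, mean-variance trend), and p-values were adjusted by Benjamini-Hochberg over all of them. Changes of low genes are understated by the pseudocount of 1. The fit was tested on simulated data. Estimated reads were recovered from the steps of the CPM values, of which 63.0% to 65.2% per library lay within 0.005 of a whole read. They were used for depth and for limma voom. Python 3.11.15 with pandas 2.3.3, numpy 2.4.6 and matplotlib 3.10.9 was used otherwise.

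The members and lists were chosen with earlier results of these data known. All members are named; from each list, the 3 smallest p-values among called genes in each direction are named, except that some single genes are not reported here. Other list members, Gpr137, D630008O14Rik and the ratio pairs were chosen after their values were seen. The alternatives were other pseudocounts, filters, scalings and weights, robust eBayes, a replicate block, voom and leaving out each library. Leaving out both libraries numbered 4 was added after seeing the data.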

Additional observations from a re-analysis of the deposited data

Results flagged for a closer look

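Among 76 sets of 4 libraries looked at (the members and the other genes named by rule, in each group), 4 had a library whose gap to the nearest other was above Dixon's 95% critical value. Chance would flag about 1 in 20 such sets if they were independent. The sets come from the same libraries and are not independent, so the count cannot be judged against that rate. The cause of the flags was not tested. Bcl2 was at 658 CPM in B6 replicate 4, where the other B6 libraries were at 420.5 to 436. Bid was at 52.8 CPM in CD103Tg replicate 4, where the others were at 61.0 to 61.9. Naip5 was at 4.71 CPM in CD103Tg replicate 4, where the others were at 7.0 to 7.4. Stat5b was at 162 CPM in B6 replicate 4, where the others were at 181 to 182. All 4 values belong to libraries numbered 4.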

How the results depend on the processing

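The count of called members was 6 to 8 of 10 over 20 alternatives, against 7, and the count over all genes 2786 to 3968, against 3592. Bcl2, Bcl2l1, Bax, Bcl2l11, Bbc3 and Bad kept direction and call in all 20. Quantile normalization gave 46.6% of all calls as higher and equal totals 48.7%, against 55.7%. Bid changed sign with median-of-ratios scaling (-0.0019), quantile normalization (-0.026) and equal totals (-0.026), and was at -0.042 to 0.057 when 1 library was left out. Bak1 was at -0.12 to 0.087 when 1 library was left out, and a minimum mean of 5 CPM leaves it untested. Neither was called in any fit. Pmaip1 missed the threshold with quantile normalization (adjusted p = 0.0648), equal totals (0.0577), array weights (0.0571) and voom (0.0517). With the replicate number as a block, 7 members were called, as without it, and 3682 genes in all. The labels name no block or batch, so the numbers were not taken as pairs. Same-numbered libraries had deviations correlated at 0.22, 0.35, -0.081 and 0.12 for numbers 1 to 4, and 2 of 4 B6 libraries were most like their own number. Whether same-numbered libraries were handled together cannot be told from these values. Depth limits Bak1 most, which rests on 76.0 to 132 estimated reads per library.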
